A study of Rattus norvegicus with 4 samples.

Results

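The genes described here make cholesterol or control how much of it a cell makes. They are 26 named genes: the enzymes of the mevalonate and sterol pathway, the SREBP transcription factors with the membrane proteins that hold or release them, and a sterol carrier. The members were chosen by name and function, and a probe was tied to a member when its RefSeq accession belonged to that symbol in the rat gene table. In this way 25 of the 26 members were found on the array through 36 probes, among 16581 genes with a symbol in all. Lbr, which encodes a sterol reductase of the nuclear envelope, could be tied to no probe.

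Transcripts were measured in NR8383 cells, a rat alveolar macrophage line started by lavage of a normal lung. All 4 arrays came from 1 group: cells after 20 passages, seeded for 48 h in medium with 15% heat-inactivated fetal bovine serum, with a 4 h exposure to NiZnFe2O4, a nickel zinc iron oxide, at 9.25 µg/mL. The design also names cells without the oxide, whose arrays were not analysed here, so no value below shows what the exposure did. The serum that all cultures shared carries lipoprotein cholesterol, and the line is a single established cell line rather than macrophages taken fresh from an animal. The labels call the 4 samples biological replicates.

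Cholesterol is built from acetyl-CoA through mevalonate, isoprenoid diphosphates, squalene and lanosterol. When sterols in the endoplasmic reticulum run low, the escort protein SCAP carries the SREBP precursors to the Golgi, where proteases release the active factors; when sterols are plentiful, INSIG proteins hold SCAP back. SREBP-2, from Srebf2, mainly drives the sterol enzymes, and SREBP-1, from Srebf1, mainly drives fatty acid synthesis. Macrophages take up much cholesterol by engulfing cells and lipoproteins, and their own synthesis is known to respond to that load.

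Each of the 4 arrays carried 58717 spots for rat transcripts, of which between 21812 and 24981 were well above background by the scanner software's flag, and none was saturated. Replicate 1 was the brightest array: the 75th percentile of the signal over probes was 41.6 intensity units there, against 32.7, 23.5 and 24.8 on replicates 2, 3 and 4. Levels below are log2 processed signals relative to that percentile on the array in question, and their precision is limited by the number of arrays. Without this scaling 20 of the 21 members detected throughout were highest on replicate 1 (Srebf1 on replicate 2). Unless said otherwise, every statement below that another array was highest, or replicate 1 lowest, thus rests on the scaling. A probe's brightness depends on its own sequence, so a level is compared between arrays and never between genes. All 4 arrays detected 10 of 14 macrophage markers, and 38.7% of all genes with a symbol. None detected Marco or Adgre1. Not 1 of 7 lung epithelial markers passed on any array, and of 5 hepatocyte markers Hnf4a alone did, on 1 array. Dcn was the only one of 4 fibroblast markers to pass, on all 4.

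Most of the pathway was measurable in the exposed cells. Every array detected 21 (84%) of the 25 members with a probe, in the sense of a signal well above background, against 38.7% of all genes with a symbol. The 4 others were Ggps1, Hsd17b7, Sc5d and Insig2, of which the first 3 passed on some arrays and Insig2 on none. The count is a description, since the members are neither a sample of genes nor independent of each other. It was 22 when 3 of 4 arrays sufficed (41.5% of all genes) and 19 when every probe of a gene had to pass (33.2%).

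**Figure D1:**
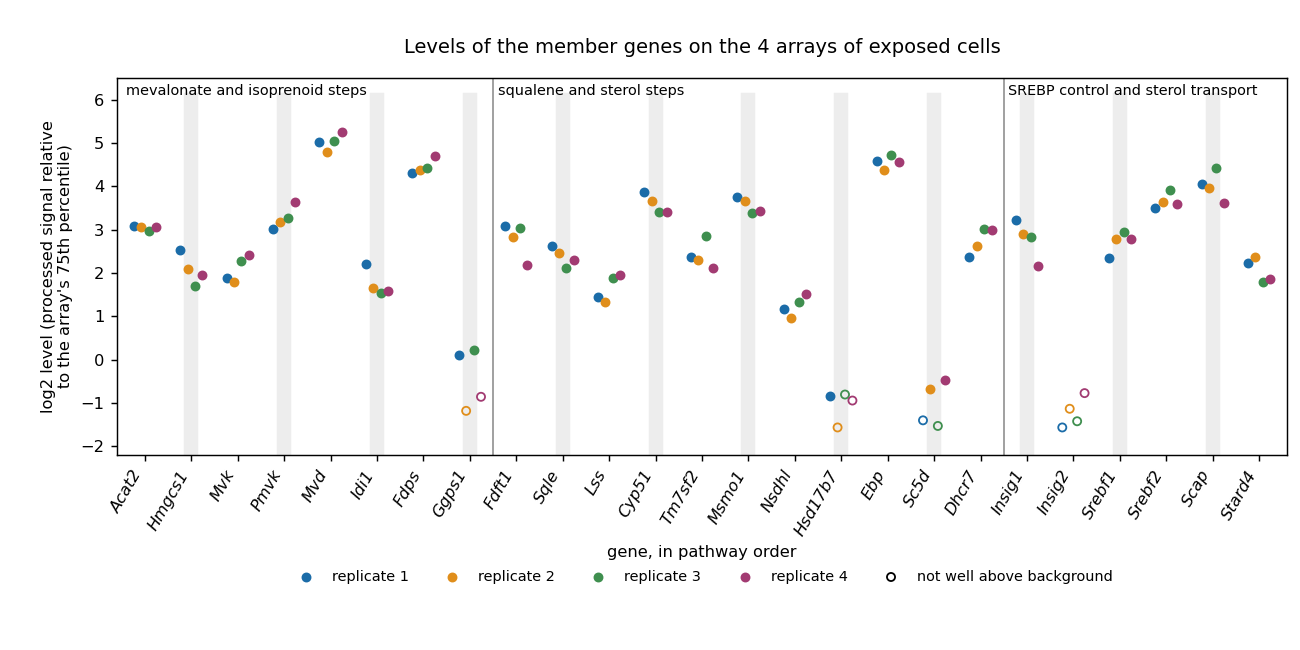
Log2 level of 25 members on each of 4 replicate arrays, by gene in pathway order; filled points are well above background on that array and open points are not, and each gene is shown by its probe with the highest mean. Only Ggps1, Hsd17b7, Sc5d and Insig2 have open points, and heights of different genes are not comparable.

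The early steps lead from acetyl-CoA to farnesyl diphosphate. Acat2, the cytosolic thiolase that joins 2 acetyl-CoA molecules, stood at log2 levels of 3.09, 3.06, 2.96 and 3.07 on replicates 1 to 4, or 3.05 ± 0.06 (SD, n = 4). This SD depends on the scaling and the probe: it was 0.43 without scaling, 0.22 with normexp correction and 0.16 with the mean of all probes. Hmgcs1, the HMG-CoA synthase that makes the substrate for mevalonate, stood at 2.52, 2.09, 1.70 and 1.95, or 2.06 ± 0.35 (SD, n = 4). Its processed signal was 239 intensity units on replicate 1 and 76.2 on replicate 3, and replicate 1 was highest with and without scaling.

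Mevalonate is phosphorylated by the products of Mvk and Pmvk and then decarboxylated by that of Mvd. Mvk stood at 1.89, 1.79, 2.27 and 2.42 (2.09 ± 0.30, SD, n = 4), Pmvk at 3.01, 3.17, 3.27 and 3.63 (3.27 ± 0.26) and Mvd at 5.03, 4.79, 5.05 and 5.26 (5.03 ± 0.19). After scaling all 3 were highest on replicate 4, where Hmgcs1 was below its own mean. Replicate 4 was also the highest for 37.1% of the 6418 genes well above background on all 4 arrays, and for 6 of 21 members (28.6%).

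Idi1, the isomerase that readies the isoprenoid unit for chain growth, stood at 2.22, 1.65, 1.53 and 1.59, or 1.75 ± 0.32 (SD, n = 4). Replicate 1 was the highest, and the other 3 arrays lay between 1.53 and 1.65. Fdps, the farnesyl diphosphate synthase, stood at 4.31, 4.37, 4.42 and 4.70, or 4.45 ± 0.17 (SD, n = 4). RefSeq lists named pseudogenes of Fdps, Idi1, Cyp51 and Acat2, and probe sequences were not used here, so signal from such copies cannot be told apart from that of the gene.

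Ggps1 makes geranylgeranyl diphosphate, the isoprenoid that anchors many small GTPases. Its 2 probes did not pass on the same arrays. The first had 45.1, 14.4, 27.3 and 13.7 intensity units and passed on replicates 1 and 3. The second had 31.4, 25.2, 14.2 and 19.5 units and passed on all except replicate 3. Thus on each array at least 1 probe of Ggps1 passed, but neither did on all 4. The first spot lies in an area of the replicate 2 array where neighbouring spots were 0.30 log2 units low at the median. With that local trend removed, the SD of this probe over the arrays was 0.59, against 0.70 with it.

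From squalene to lanosterol, all 3 enzymes were well above background on all 4 arrays. Fdft1, squalene synthase, which commits isoprenoids to sterols, stood at 3.09, 2.82, 3.03 and 2.18 (2.78 ± 0.42, SD, n = 4), with replicate 4 the lowest. Sqle, squalene epoxidase, a rate-controlling oxygenase of the pathway, stood at 2.63, 2.46, 2.11 and 2.31 (2.38 ± 0.22). Lss, which closes the sterol rings to lanosterol, stood at 1.44, 1.32, 1.89 and 1.96 (1.65 ± 0.32). Sqle was highest on replicate 1 and lowest on replicate 3, whereas Lss was above its mean on replicates 3 and 4.

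Lanosterol is then trimmed to cholesterol by demethylation, reduction and a double-bond shift. Cyp51, the cytochrome P450 that removes the first methyl group, stood at 3.88, 3.66, 3.42 and 3.40 (3.59 ± 0.23, SD, n = 4). Msmo1, the oxidase that starts removal of the other methyl groups, stood at 3.75, 3.67, 3.39 and 3.44 (3.56 ± 0.18). Both were highest on replicate 1, like Sqle. Nsdhl, the dehydrogenase of the same demethylation, stood at 1.17, 0.97, 1.33 and 1.51 (1.24 ± 0.23), lowest on replicate 2.

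Hsd17b7, the reductase that completes this demethylation, was well above background on replicate 1 only, with 23.2 intensity units there and 11.1, 13.5 and 12.9 on the others. Its second probe passed on no array. For scale, the first percentile of the signal among probes that did pass was 18.2, 15.7, 19.1 and 18.6 units on replicates 1 to 4. Where a member missed the call its level is only an upper bound.

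Reduction of the sterol nucleus can be done by the product of Tm7sf2 or of Lbr. Tm7sf2 was well above background on all 4 arrays, at 2.36, 2.31, 2.85 and 2.12 (2.41 ± 0.31, SD, n = 4), while Lbr was not measured, so their shares in this step cannot be given. Ebp, the isomerase that shifts the double bond, stood at 4.58, 4.37, 4.73 and 4.56 (4.56 ± 0.15). Sc5d, the desaturase that follows it, passed on replicates 2 and 4 with 20.6 and 18.0 units and missed on replicates 1 and 3 with 15.8 and 8.14. Dhcr7, a reductase at the end of the pathway, stood at 2.38, 2.62, 3.01 and 2.99 (2.75 ± 0.31), with replicate 1 the lowest. The sterol segment thus had Hsd17b7 and Sc5d as the 2 measured enzymes not seen on every array.

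Among the control genes, both SREBP genes and the escort gene were present. Srebf2 stood at 3.50, 3.63, 3.92 and 3.59 (3.66 ± 0.18, SD, n = 4), Srebf1 at 2.35, 2.78, 2.95 and 2.79 (2.72 ± 0.26) and Scap at 4.04, 3.96, 4.42 and 3.61 (4.01 ± 0.33). All 3 were highest on replicate 3 after scaling, as were 24.5% of the 6418 genes well above background on all 4 arrays and 6 of 21 members (28.6%). For Srebf1 this holds for the probe with the highest mean, while its second probe was highest on replicate 4 with and without scaling.

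Insig1, itself a target of SREBP-2 and the sterol-regulated of the 2 INSIG genes, stood at 3.21, 2.90, 2.83 and 2.17 (2.78 ± 0.44, SD, n = 4), with replicate 4 the lowest. Insig2 was well above background on no array, with 14.1, 14.9, 8.78 and 14.5 intensity units. Both genes were read by different probes, so this shows which one was detected and not their ratio. Stard4, a cytosolic carrier that moves cholesterol between membranes, stood at 2.23, 2.37, 1.78 and 1.86 (2.06 ± 0.29). A second Stard4 probe had 3.52 to 3.81 units and passed on no array.

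Most members with a promoter window shared a feature whose letters were not used to choose them. The members were chosen as genes of a pathway that SREBPs control, so the feature is not independent of that choice. SREBPs act with partner factors such as NF-Y, which binds the letters CCAAT. RefSeq windows from 250 bases before to 50 after the annotated start (GRCr8) were found for 22 members; Pmvk, Fdft1, Sqle and Stard4 were without one. CCAAT on either strand occurred in 18 of the 22 (81.8%), against 39.8% of 19005 protein-coding genes and 40.9% of the 5403 genes with a window that were well above background on all 4 arrays. At least 2 copies in 1 window were found in 12 members (54.5%), against 12.2% of all 27457 genes with a window. Of 39 copies in members, 30 read as ATTGG on the gene's strand, and 28 began between 150 and 20 bases before the start. The 4 members whose windows lacked these letters were Acat2, Cyp51, Dhcr7 and Scap, all well above background on all 4 arrays. Ggps1, Hsd17b7, Sc5d and Insig2, which missed the background call, all had them.

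Of the other motifs searched on both strands, the GC box GGGCGG occurred in 18 of 22 members (81.8%), against 64.7% of detected and 44.1% of protein-coding genes. The E-box CACGTG occurred in 3, Insig1, Sc5d and Scap (13.6%, against 10.7% of detected genes). The sterol element core searched as TCACNCCAC was in none of the 22 windows and in 1.15% of those of detected genes, which says only that these letters are not in these windows. No 2 different motifs overlapped in a member's window. A match is a description of letters and no measurement of binding.

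The 220 bases before the annotated start are given for 6 members, 5′ to 3′ on the gene's strand, with CCAAT, its reverse complement ATTGG and the E-box in capitals. They were picked to show the range, from 5 copies in Mvk and Nsdhl and 3 in Msmo1, through 2 in Hmgcs1 and 1 in Insig1, which also has the E-box, to none in Cyp51. The stretches lie at chr2:53382084-53382303 (+) for Hmgcs1, chr12:47819504-47819723 (-) for Mvk, chr4:30991473-30991692 (+) for Cyp51, chr16:29746893-29747112 (+) for Msmo1, chrX:155817140-155817359 (+) for Nsdhl and chr4:8057770-8057989 (-) for Insig1, all in GRCr8.
Hmgcs1: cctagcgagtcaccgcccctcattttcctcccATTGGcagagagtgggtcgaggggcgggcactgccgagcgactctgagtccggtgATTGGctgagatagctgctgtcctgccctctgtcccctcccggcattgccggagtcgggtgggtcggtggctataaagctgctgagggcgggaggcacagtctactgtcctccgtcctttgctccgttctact
Mvk: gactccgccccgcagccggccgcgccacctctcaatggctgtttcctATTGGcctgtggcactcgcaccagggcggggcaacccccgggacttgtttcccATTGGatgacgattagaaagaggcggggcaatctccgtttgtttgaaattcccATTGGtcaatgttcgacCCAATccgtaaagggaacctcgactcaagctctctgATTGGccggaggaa
Cyp51: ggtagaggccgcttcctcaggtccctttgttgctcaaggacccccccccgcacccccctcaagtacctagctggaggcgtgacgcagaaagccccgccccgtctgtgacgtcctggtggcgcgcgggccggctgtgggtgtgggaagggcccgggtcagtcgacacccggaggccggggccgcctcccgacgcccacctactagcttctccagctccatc
Msmo1: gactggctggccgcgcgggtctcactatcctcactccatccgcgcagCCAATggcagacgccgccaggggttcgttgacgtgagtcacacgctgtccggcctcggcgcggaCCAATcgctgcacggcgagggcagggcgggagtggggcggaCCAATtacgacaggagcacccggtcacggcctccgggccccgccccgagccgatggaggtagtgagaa
Nsdhl: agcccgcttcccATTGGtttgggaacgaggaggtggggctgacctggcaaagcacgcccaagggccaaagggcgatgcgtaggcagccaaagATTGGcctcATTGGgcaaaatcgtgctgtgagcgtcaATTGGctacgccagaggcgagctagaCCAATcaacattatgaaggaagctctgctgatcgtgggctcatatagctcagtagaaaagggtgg
Insig1: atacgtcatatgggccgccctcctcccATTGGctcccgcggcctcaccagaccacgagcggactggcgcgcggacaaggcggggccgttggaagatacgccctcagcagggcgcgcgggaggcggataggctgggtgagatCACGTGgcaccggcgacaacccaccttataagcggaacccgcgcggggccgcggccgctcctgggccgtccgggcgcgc

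**Figure D2:**
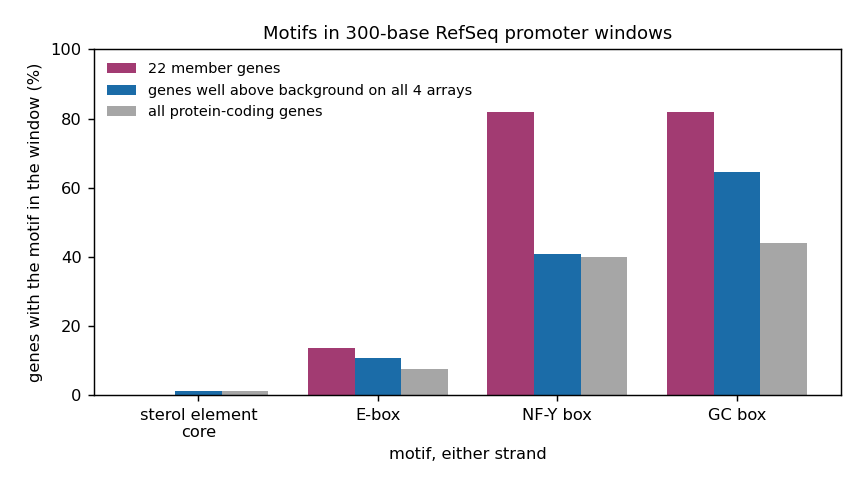
Share of genes, in percent, whose 300-base promoter window holds each motif on either strand, for 22 members, for genes well above background on all 4 arrays and for all protein-coding genes. The NF-Y box bar of the members reaches 81.8%, against 40.9% and 39.8%.

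The spread of the members between replicates was close to that of other genes. Over the 21 members the median SD was 0.26 log2 units, with a range from 0.06 (Acat2) to 0.44 (Insig1), and over the 6418 genes well above background on all 4 arrays it was 0.23. The median deviation of the members from their own means was 0.02, -0.05, 0.06 and -0.07 on replicates 1 to 4, and that of all 6418 genes was -0.06, -0.01, 0.02 and 0.06. Above their own mean lay 11, 9, 12 and 9 of the 21 members on replicates 1 to 4, and 2633, 3063, 3449 and 3861 of the 6418 genes. These values rest on the scaling, without which the median deviation of the members on replicate 1 was 0.50. None of the 21 had 1 array apart from the rest by Dixon's ratio, which 4.92% of the 6418 genes did.

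**Figure D3:**
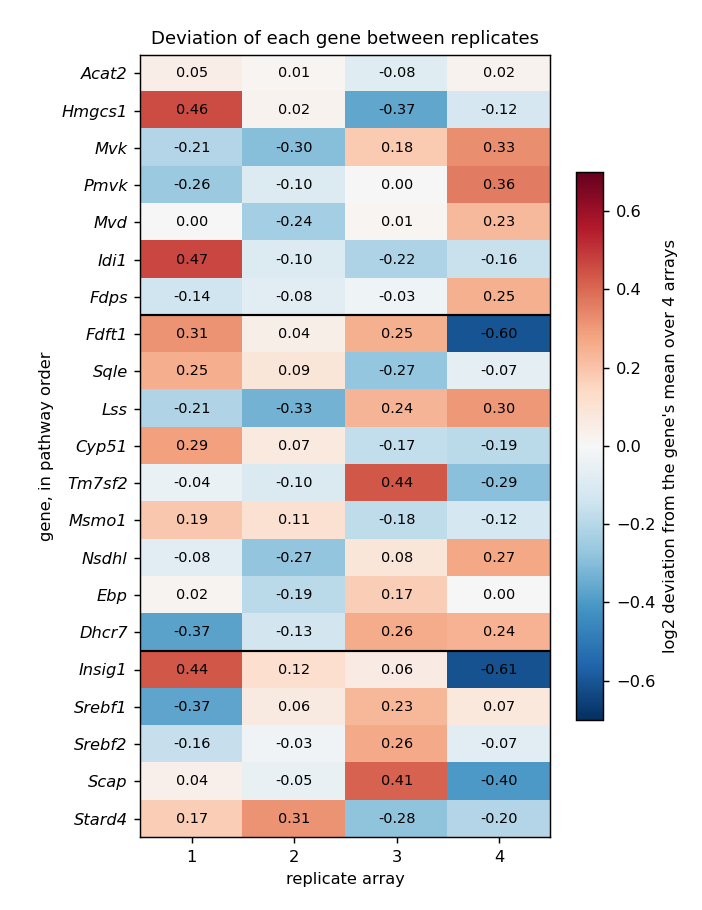
Log2 deviation of 21 members from their own mean over 4 arrays, by gene (rows, in pathway order) and replicate (columns). Hmgcs1, Idi1 and Insig1 are 0.44 to 0.47 above their mean on replicate 1, and Dhcr7 and Srebf1 are 0.37 below theirs after scaling, an order that turns without it.

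Within the pathway the members split by which array was highest. On replicate 1, 8 of 21 (38.1%) had their highest level, against 22.3% of the 6418 genes. These were Acat2, Hmgcs1, Idi1, Fdft1, Sqle, Cyp51, Msmo1 and Insig1. Another 5 (23.8%), Pmvk, Fdps, Dhcr7, Srebf1 and Srebf2, had their lowest level there, against 37.4% of the 6418 genes. Without replicate 2 the members lowest there were 9 (47.4% of genes), and by setting they ranged from 0 without scaling (1.76% of genes) to 7 with the mean of all probes (41.2%). This pattern was noticed in the values and was given no test. The same 8 were highest on replicate 1 with quantile normalization (29.5% of all genes) and with the percentile over detected probes (29.2%). With the mean of all probes Acat2 was instead among the members lowest there, and the other 7 were still highest. The count depended on how brightness was handled: without scaling 20 of 21 members and 80.1% of all genes were highest there, and with normexp correction 14 members and 52.9% of genes. The part of overall brightness in the order of the arrays was not tested.

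The gap between replicate 1 and the lowest array differed in size among these members. It was 1.04 log2 units for Insig1 and 0.92 for Fdft1, both against replicate 4. From replicate 3 to replicate 1, Hmgcs1 differed by 0.83 log2 units, or 1.77-fold, a difference exceeded by few genes, as 98.5% of the 6418 had a lower one. Idi1 differed by 0.68 (1.61-fold) and Sqle by 0.52 (1.44-fold), above 96.8% and 92.5% of genes. At the other end, Dhcr7 and Srebf1 differed by -0.63 and -0.61, with 8.21% and 9.21% of genes lower. Over all genes this difference had a median of -0.09, with -0.58 at percentile 10 and 0.46 at percentile 90. The median of the 21 members was -0.11, and 3 of them lay above percentile 90 and 2 below percentile 10. The members named here are thus the ends of a distribution close to that of all genes. These are single arrays of 1 group, so the values describe the cultures and arrays and not a treatment.

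Probes printed in 10 spots showed how much of this was reading error within an array. Cyp51 was read by 9 to 10 usable spots on each array, with an SD between spots of 0.04 to 0.13 and a standard error of 0.01 to 0.04. The lowest Cyp51 spot on replicate 1 (3.84) lay above the highest on replicates 2 (3.79), 3 (3.56) and 4 (3.62). The lowest Msmo1 spot on replicate 1 (3.69) lay above the highest on replicates 3 (3.45) and 4 (3.57) and below the highest on replicate 2 (3.76). The lowest Sqle spot on replicate 1 (2.39) lay above the highest on replicate 3 (2.27), though spots of replicates 1, 2 and 4 overlapped. Spots of 1 array share the labelled sample and the hybridisation, so they measure the precision of the reading and not that of the culture.

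The other probes of this kind gave the opposite or no order. Fdps spots on replicate 4 (4.49 to 4.80) lay above those on replicate 1 (4.23 to 4.35). Ebp spots on replicate 3 (4.61 to 4.86) lay above those on replicate 2 (4.12 to 4.51). Acat2 spots overlapped on all arrays, between 2.87 and 3.26. Within the same arrays, then, Cyp51, Msmo1 and Sqle were highest on replicate 1, and after scaling Fdps was highest on replicate 4 and Ebp on replicate 3.

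**Figure D4:**
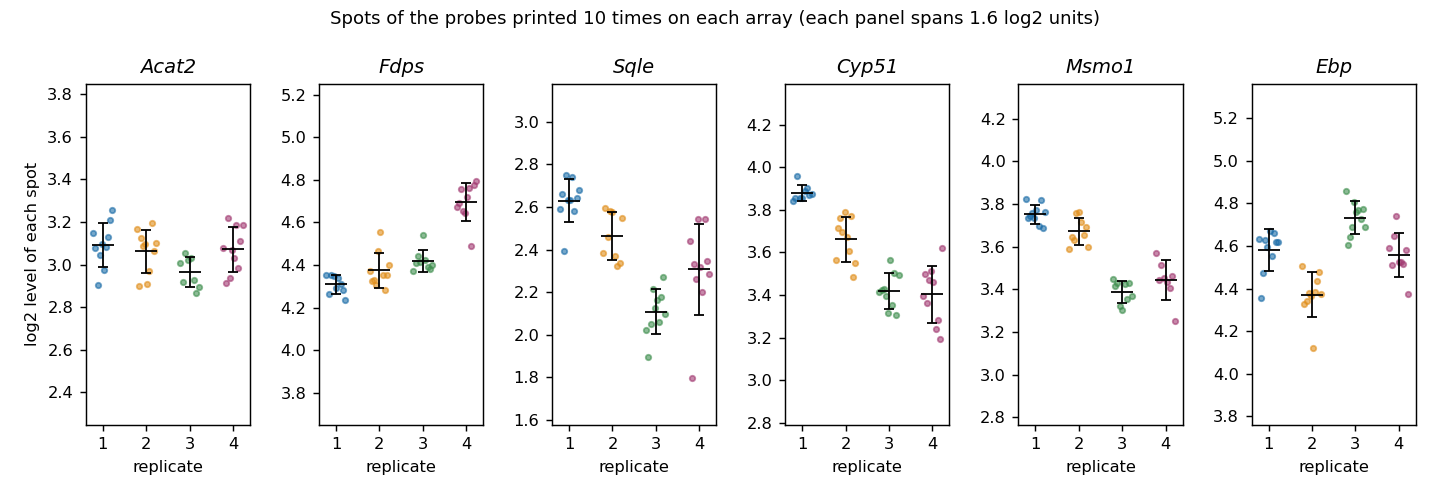
Log2 level of every usable spot of the 6 member probes printed 10 times, by replicate array, with bars for mean and SD between spots; each panel spans the same height. Cyp51 spots on replicate 1 start at 3.84, above all spots of the other 3 arrays, and Acat2 spots overlap throughout.

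A second probe was available for 6 members on all 4 arrays. For Idi1 and Cyp51 both probes were highest on replicate 1: the second Idi1 probe stood at 1.08, 0.59, 0.17 and 0.19, and the second Cyp51 probe at 2.96, 2.70, 2.19 and 2.40. For Srebf1 both were lowest on replicate 1, with the second probe at 0.91, 1.29, 1.33 and 1.99. The second was highest on replicate 4 and the first on replicate 3. For Insig1 they differed: the second probe stood at 1.03, 1.16, 1.24 and 1.11, within 0.21 log2 units, where the first ranged over 1.04. For Lss the second probe ranged over only 0.06, between 1.59 and 1.65, where the first ranged over 0.63. Acat2 had 4 probes, and the first and second both stayed within 0.19, the first highest on replicate 1 and the second on replicate 3. The third passed on replicates 2 and 4 only and ranged over 1.17 log2 units. The fourth passed on replicate 1 only. The array differences of Insig1 and Lss thus rest on 1 probe in a single spot each, and those of Hmgcs1, Fdft1, Dhcr7 and the other members with 1 probe in 1 spot have no such check.

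**Figure D5:**
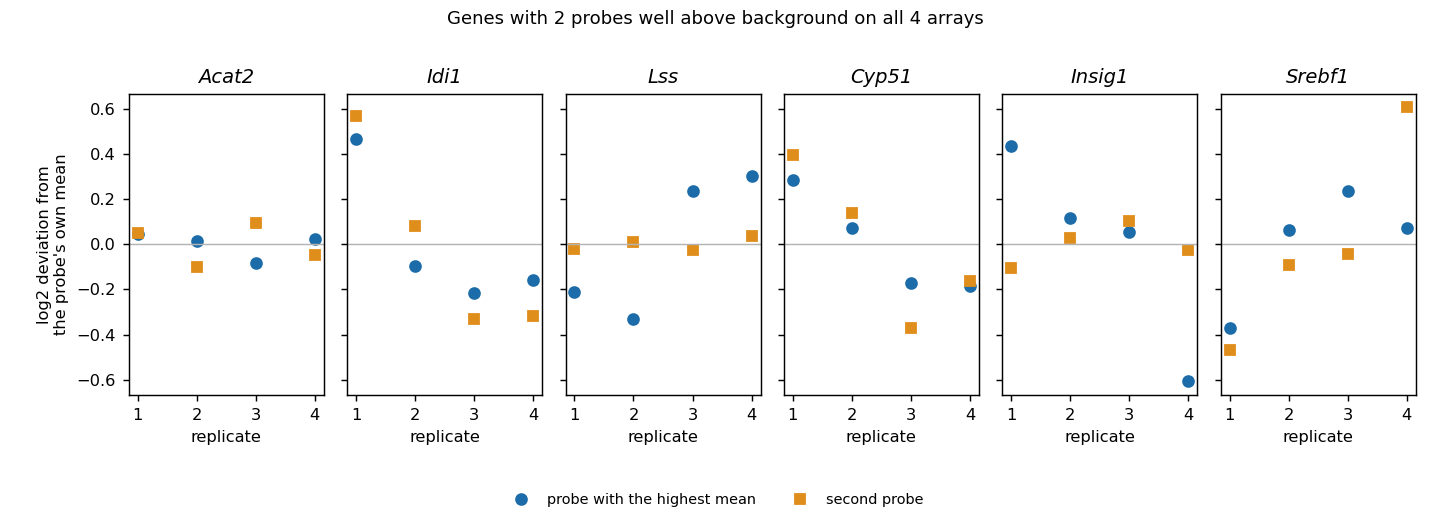
Log2 deviation from the probe's own mean, by replicate, for the 6 members with 2 probes well above background on all 4 arrays; circles are the probe with the highest mean and squares the second probe. Both probes of Idi1 and Cyp51 are highest on replicate 1, while the Insig1 and Lss probes part.

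Genes around the pathway were read in the same way from lists of their known functions. The share to set beside each count is the 38.7% of all genes with a symbol that passed on every array. SREBP cleavage and sterol-regulated protein degradation were represented by 20 measured genes, of which 15 passed on every array, 2 on some and 3 on none. Mbtps1, the protease that makes the first cut in SREBPs, stood at 3.37, 1.44, 3.47 and 3.10. Its spot lay among neighbours that were 1.14 log2 units low at the median on replicate 2, so the low value there is shared by the surrounding spots. Mbtps2, the protease of the next cut, passed on 1 array. Rnf139, an endoplasmic reticulum ubiquitin ligase that acts with INSIGs, stood at 0.45 ± 0.19 (SD, n = 4).

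Among 20 other SREBP targets and lipid regulators, 8 passed on every array and the remaining 12 on none, a share close to the 38.7% of all genes. Acly, which supplies cytosolic acetyl-CoA, stood at 5.03 ± 0.20 (SD, n = 4), and the LXR genes Nr1h2 and Nr1h3, whose products sense oxysterols, at 4.45 ± 0.41 and 6.57 ± 0.19. Fasn, the fatty acid synthase, had 8.30, 3.40, 3.78 and 4.19 intensity units. Scd, the stearoyl-CoA desaturase, had 9.05, 3.05, 3.76 and 3.66. Fasn, Scd and the desaturase genes Fads1 and Fads2 passed on no array, each with 1 probe. Acss2 and Me1, which supply acetyl-CoA and NADPH for lipid synthesis and were added to the named genes after their values were seen, passed on all 4. Signals of different probes were not set against each other.

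The isoprenoid branches that leave at farnesyl diphosphate had 13 measured genes, of which 11 passed on every array, 1 on some and 1 on none. Of all genes with a symbol, 38.7% passed on every array. Fnta and Fntb, the subunits of protein farnesyltransferase, stood at 2.26 ± 0.11 and 1.17 ± 0.21 (SD, n = 4 each), and Dhdds, a subunit of the enzyme that makes dolichol's chain, at 4.94 ± 0.17. Pggt1b, a subunit of the enzyme that attaches geranylgeranyl groups to proteins, passed on no array. Of 7 further genes of sterol and ketone body synthesis, 2 passed throughout, 3 on part of the arrays and 2 nowhere. Acat1, the mitochondrial thiolase, stood at 4.74 ± 0.08, and Erg28, a scaffold of sterol demethylation, passed on 2 arrays.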

How the data were processed

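For the images of the 4 arrays the authors used Agilent Feature Extraction (11.0.1.1 in the submitters' processing notes). What they deposited is linear intensity, as a processed signal with background removed and, per the file headers, spatial detrending, and as median spot and background signals, with flags of 0 or 1 and no scaling between arrays. Files carry no gene names: accessions were matched to RefSeq transcripts of GRCr8 (21109 of 45598 probes got 1 symbol; the others are unnamed here). The array design names another build, so only RefSeq promoter coordinates are given.

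Control spots and outlier spots were left out, spots of a probe were averaged on the log2 scale, and each array's 75th percentile over probes was subtracted. A probe passed when at least 0.5 of its spots were well above background. The probe with the highest mean gives a gene's level, and it passed if any 1 probe did on all 4 arrays. With 1 group no test between groups was possible. Members and lists were chosen with earlier results of these data known; all members are named, and some listed genes are counted but not reported here by name. The local trend is the median deviation of spots within 10 rows and columns. Alternatives were another flag, 3 of 4 arrays, all probes, kept outlier spots, other scalings, normexp in limma 3.58.1 (under R 4.3.3) on median signals, its offset being 50, probe means, no filter on dim genes, no local trend and leaving out each replicate. Procedures were tested on simulated data. Python 3.11.15, numpy 2.4.6 and pandas 2.3.3 were used. The planned comparison of member proteins was not run, as protein sequences were not used here.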

Additional observations from a re-analysis of the deposited data

Results flagged for a closer look

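Of 83 values tested, 4 had 1 array apart from the other 3 by Dixon's ratio, where chance gives about 1 in 20. The second Ggps1 probe (ratio 0.832) was low on replicate 3, at -0.72 against -0.41 to -0.34 on the others, and was not well above background there. Acly (0.862) was low on replicate 4, at 4.73 against 5.11 to 5.17. Nus1 (0.841), which pairs with Dhdds in dolichol synthesis, was low on replicate 4 at -0.09 against 0.50 to 0.61. Ube2g2 (0.860), a ubiquitin-conjugating enzyme of the endoplasmic reticulum, was high on replicate 4 at 4.70 against 4.33 to 4.39.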

How the results depend on the processing

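No paired analysis was possible because the labels give 1 group. The count of members well above background on all 4 arrays (21) stayed between 19 and 25 in all 8 alternatives. It was 25 with the looser flag, by which 50.9% of all genes passed. Leaving out an array can only keep or raise this count. The median SD of the members (0.263) was 0.414 without scaling, 0.226 with normexp, 0.232 with the mean of all probes, 0.301 with no filter on dim genes, and 0.219 to 0.275 when a replicate was left out. The median deviation on replicate 1 (0.021) was 0.502 without scaling, 0.093 with quantile normalization, 0.085 when the percentile came from detected probes, 0.254 with normexp, -0.044 with the mean of all probes, and -0.042 to 0.078 with an array left out. On replicate 2 (-0.050) it was 0.083 without scaling and 0.058 with normexp. On replicate 3 (0.055) it was -0.289 and -0.074 in these 2 settings and -0.009 to 0.090 with an array left out. On replicate 4 (-0.070) it was -0.148 when the percentile came from detected probes, -0.339 without scaling, -0.161 with normexp, -0.003 with the mean of all probes and -0.003 with no filter on dim genes, and -0.067 to 0.004 with an array left out. Without scaling the differences in brightness between arrays stay in the values; other causes were not tested. Removing the local trend moved the mean level of 0 of 25 members by more than its SD, and averaging probes moved 6. Leaving out 1 of 4 arrays cannot by arithmetic move a mean by more than its SD, so it is no check of the levels. The other scalings change the reference point of all levels. The number of members lowest on replicate 1 (5) was 9 without replicate 2. Members near background, Ggps1, Hsd17b7, Sc5d and Insig2, have bounds only.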
